A study of Mus musculus with 20 samples.

Results

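AP-1 is a family of transcription factors that bind DNA as pairs, and the account covers 8 of its genes in mouse kidney: Fos, Fosb and Fosl2 of the FOS group, Jun, Junb and Jund of the JUN group, and Atf3 and Maff, which come from the related ATF and small MAF groups. They were taken by symbol, and these are 8 of the 43430 genes in the count files. RNA was measured in the kidney cortex of male C3H/HeJ mice, 10 weeks old when a high fat diet (HFD) began. The mice were WT or SP, where SP stands for Sweet Pee, a missense mutant of Slc5a2, the gene of the glucose carrier SGLT2. All mice had HFD for 8 weeks before dosing. MAT2Ai is a small molecule that blocks MAT2A, the enzyme that makes the methyl donor S-adenosylmethionine, and was injected intraperitoneally at 10 mg/kg 3 times per week for 8 weeks, with DMSO as placebo. The study used it to ask whether this methyl donor has a part in the kidney protection of SP mice. The 4 groups were SP MAT2Ai, SP placebo, WT MAT2Ai and WT placebo, with 5 libraries each. The labels name kidney and replicate numbers but do not say whether a library is 1 animal, so the spread between libraries may be partly technical.

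AP-1 pairs are held together by a leucine zipper, and a basic stretch beside it touches DNA. FOS proteins cannot pair with each other and need a JUN partner, whereas JUN proteins can pair among themselves. FOS and JUN genes are the classic immediate early genes: a signal through MAP kinases switches them on within minutes, without new protein synthesis, and their mRNA decays fast. ATF3 is a stress-induced member that often represses, and MAFF lacks an activation domain and acts through its partners. In kidney, AP-1 genes are known to be switched on in tubule cells after ischaemia or toxic injury.

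Each library held 53296824 to 79339949 reads counted in genes, of which 12.4% to 22.2% were mitochondrial. Values are CPM, that is counts scaled to a common library size, here with TMM factors. Markers of proximal tubule, the main cell of the cortex, summed to between 5964 and 11037 CPM in every library. As a check of the genotype, Slc5a2 stood at 43.5 to 85.9 CPM in SP MAT2Ai, at 40.2 to 282 CPM in SP placebo, at 229 to 415 CPM in WT MAT2Ai and at 371 to 518 CPM in WT placebo. The libraries labelled SP placebo 1 and 2, at 241 and 282 CPM, went against the other SP libraries. The log2 fold changes of the members against SP placebo are therefore also given without them. So are the counts of several other gene lists in SP kidneys. WT MAT2Ai replicate 2 stood apart on the first principal component (20.5% of the variance), at -89.7, with all others between -21.8 and 22.9. It also held 676 CPM of Lcn2 and 1214 CPM of Havcr1, both markers of tubular injury, against at most 19.4 and 74.4 CPM in any other library.

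To show the DNA just upstream of the members, 90 bases upstream of the start (positions -100 to -11) are printed for the 5 genes with the smallest p values in SP kidneys, 5′ to 3′ on the gene's strand, from RefSeq on GRCm38.p6. Maff has 3 RefSeq starts, and those with a match are shown. Capitals mark TGACG or the whole TGACGTCA (the cyclic AMP response element, CRE), TGACATCA (a variant of it known from the Jun promoter), CCAAT and TATAAA. The windows are chr12:85473790-85473879 on the plus strand for Fos, chr7:19310056-19310145 on the minus strand for Fosb, chr4:95052233-95052322 on the minus strand for Jun, chr8:84978759-84978848 on the minus strand for Junb, and chr15:79347420-79347509 and chr15:79348302-79348391 on the plus strand for Maff.
Fos: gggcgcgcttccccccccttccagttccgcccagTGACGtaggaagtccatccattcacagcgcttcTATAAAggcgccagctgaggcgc
Fosb: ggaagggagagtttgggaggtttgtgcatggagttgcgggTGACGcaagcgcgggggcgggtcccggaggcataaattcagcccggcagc
Jun: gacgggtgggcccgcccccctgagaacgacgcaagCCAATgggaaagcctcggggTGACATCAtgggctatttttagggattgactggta
Junb: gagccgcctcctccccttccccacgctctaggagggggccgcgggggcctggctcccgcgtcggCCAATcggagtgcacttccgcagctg
Maff start 2: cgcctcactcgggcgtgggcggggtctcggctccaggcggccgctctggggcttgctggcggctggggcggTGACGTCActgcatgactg
Maff start 3: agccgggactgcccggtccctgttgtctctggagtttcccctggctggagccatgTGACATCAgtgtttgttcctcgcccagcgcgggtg

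Fos and Fosb carry TGACG at nearly the same distance from the start, at -66 to -62 and at -60 to -56. In Jun and at the third start of Maff the variant TGACATCA lies at the same positions, -45 to -38, and the full CRE TGACGTCA lies at -29 to -22 of the second start of Maff. In windows of 300 bases, from 250 before to 50 after the start and read on both strands, TGACG was in 20.8% of all 32851 RefSeq promoters, TGACATCA in 3.62%, TGACGTCA in 1.79%, TATAAA in 13.6% and CCAAT in 37.4%. TGACG is also the first part of TGACGTCA, so matches to both overlap. The AP-1 site itself, TGANTCA, was in 7.81% of promoters and in none of the 10 windows of the 8 genes. The CArG box, bound by serum response factor, was in 1.63% of promoters and likewise in none of the 10. Sites more than 250 bases upstream lie outside these windows, so the genes may hold either motif there. The Jund window, chr8:70697489-70697788, lay wholly upstream of Jund as annotated for the counts (chr8:70698949-70700616). TGACG was added to the motifs after the sequences had been seen, and a match describes letters only.

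The members differed widely in how much mRNA they contributed. Per kilobase of exon, Jund stood at 83.2 to 167 CPM over the 20 libraries (median 95.2), Jun at 6.92 to 34.1 (median 12.5) and Junb at 4.98 to 27.2 (median 7.44). Maff followed at 1.17 to 11.8 CPM per kilobase (median 2.31), then Fosl2 at 0.798 to 4.28 (median 1.29), Atf3 at 0.690 to 7.07 (median 1.19), Fos at 0.193 to 8.55 (median 0.972) and Fosb at 0.00569 to 0.339 (median 0.0214). The range of Jund lay above those of all other members, and from Jun down to Fosb the ranges of neighbours in this order overlapped. Taken as a pool, the 8 genes were mostly Jund mRNA, 61.4% to 84.8% of the summed CPM per kilobase. Jund made up 70.7% ± 9.0 of the pool in SP MAT2Ai and 81.6% ± 2.1 in SP placebo (SD, n = 5 each), and 75.7% ± 6.2 in WT MAT2Ai against 77.3% ± 4.7 in WT placebo. The share of Fos was 0.668% to 4.57% in SP MAT2Ai and 0.220% to 0.554% in SP placebo. It was 0.260% to 1.44% in WT MAT2Ai and 0.179% to 2.95% in WT placebo, so both WT ranges overlapped that of SP MAT2Ai.

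**Figure D1:**
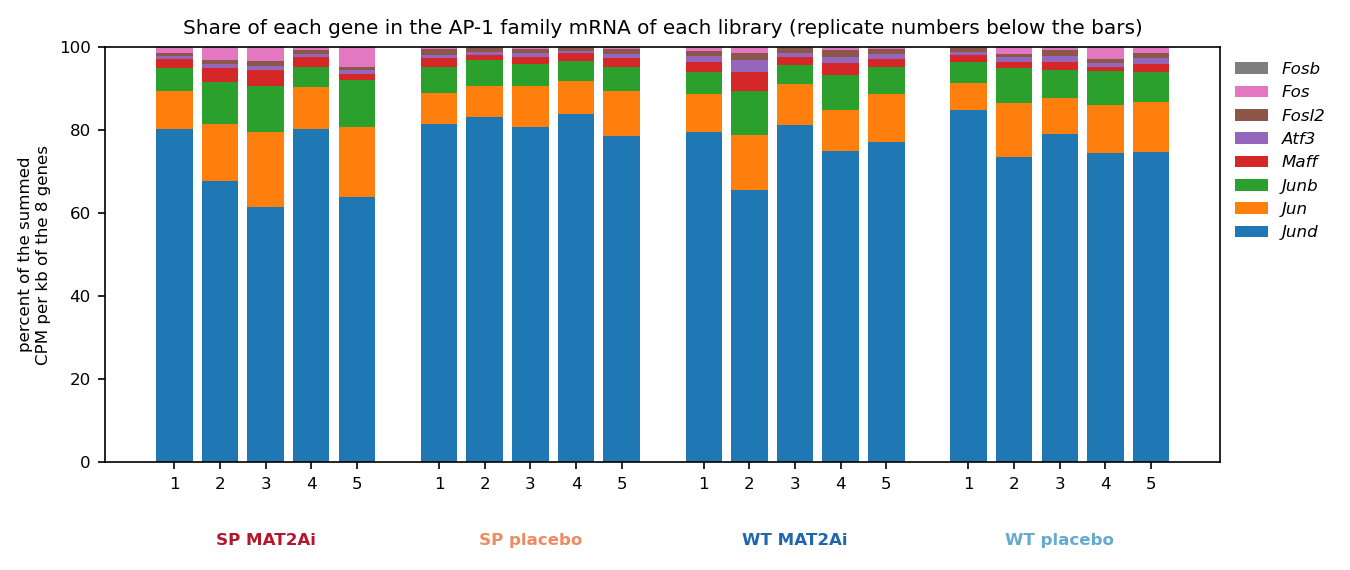
Share of each gene in the summed CPM per kilobase of the 8 AP-1 family genes (percent, vertical axis) in each library, by group and replicate number. Jund fills 61.4% to 84.8% of each bar, and Fosb is too rare to be seen.

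The order of the spread was close to the reverse of the order of the levels. Fos varied 44.2-fold and Fosb 59.5-fold between the lowest and the highest library, Atf3 10.3-fold, Maff 10.1-fold, Junb 5.47-fold, Fosl2 5.37-fold, Jun 4.93-fold and Jund 2.01-fold. The biological coefficient of variation that edgeR fitted, which takes group differences out, was 0.72 for Fos, more than in 98.7% of the 16152 genes tested, and 0.15 for Jund, near the middle of all genes. Fosb rested on 2 to 139 counts per library, so counting error is a large part of its values, while Fos had 24 to 1322 counts and Jund at least 8061. All 8 members passed the filter on low counts.

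**Figure D2:**
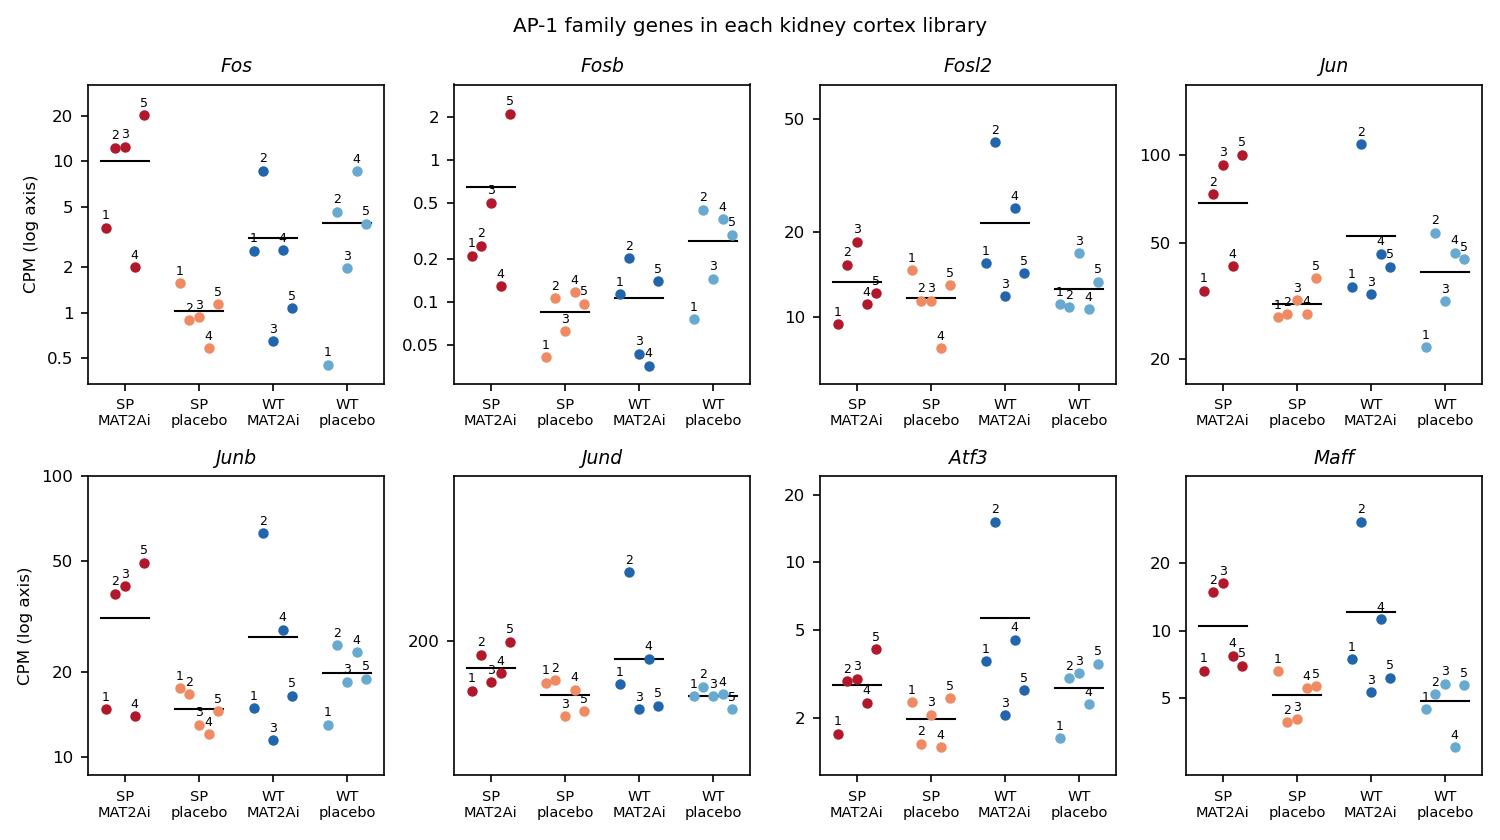
CPM of each AP-1 family gene (log axis, 1 panel a gene) in the 5 libraries of each group; points carry the replicate number, and lines give group means. Fos, Fosb and Maff are the genes whose SP MAT2Ai libraries all lie above the SP placebo libraries, and WT MAT2Ai replicate 2 is the highest of all 20 libraries for 6 of the 8 genes.

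In SP kidneys, MAT2Ai was set against placebo to see the effect of the inhibitor. All 8 members had positive log2 fold changes, against 50.6% of all genes, with a median of 1.06, against 0.0019 over all genes tested. Fos and Fosb had the largest log2 fold changes, those of Jun, Junb and Maff were near 1, and those of Fosl2, Jund and Atf3 were 0.50 or less. With the edgeR quasi-likelihood test and Benjamini-Hochberg adjustment over all genes, 0 of the 8 passed the threshold of an adjusted p under 0.05, which 0.0186% of all genes passed. At an unadjusted p under 0.05, 5 of the 8 were higher, against 3.08% of all genes, and in 3 of the 8 the SP MAT2Ai libraries all lay above the SP placebo libraries, against 1.06% of all genes. DESeq2 called 2 of the 8, against 0.168% of all genes by the same tool. The edgeR likelihood ratio test called 2 of the 8, against 0.124% of all genes, and limma-voom called 0, against 0.105%.

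Fos (mm10 chr12:85473890-85477273) encodes the FOS subunit, the usual partner of JUN. It stood at 3.66, 12.3, 12.5, 2.01 and 20.1 CPM in SP MAT2Ai replicates 1 to 5, against 1.56, 0.898, 0.937, 0.583 and 1.14 CPM in SP placebo. The groups did not overlap, but they came close: replicate 4 of SP MAT2Ai was just above replicate 1 of SP placebo, and replicates 2, 3 and 5 were far above. The log2 fold change was 3.30 ± 0.74 (SE), with an adjusted p of 0.261 by the edgeR quasi-likelihood test. The adjusted p was 0.00764 with DESeq2 and 0.00908 with the likelihood ratio test. Without the libraries labelled SP placebo 1 and 2 the log2 fold change was 3.51 (edgeR adjusted p = 1.0).

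Fosb (chr7:19302696-19310051) encodes a close relative of FOS. Its values were 0.211, 0.248, 0.500, 0.129 and 2.11 CPM in SP MAT2Ai, against 0.0408, 0.107, 0.0625, 0.117 and 0.0974 CPM in SP placebo, which correspond to 10 to 139 and to 3 to 8 counts. Again the groups did not overlap, and 1 library, SP MAT2Ai replicate 5, was far above the others. The log2 fold change was 2.89 ± 0.71 (edgeR quasi-likelihood, adjusted p = 0.370), and 1.65 without that library (adjusted p = 0.999). DESeq2 and the likelihood ratio test gave adjusted p values of 0.0318 and 0.0424.

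Jun (chr4:95049034-95052222), the JUN subunit that can pair with itself, stood at 34.4, 73.3, 92.8, 41.7 and 100.1 CPM in SP MAT2Ai, against 28, 28.6, 31.97, 28.7 and 37.9 CPM in SP placebo. Replicates 2 to 5 of SP MAT2Ai were above every placebo library, and replicate 1 lay among them. The log2 fold change was 1.14 ± 0.33 (edgeR adjusted p = 0.666). Junb (chr8:84974484-84978718), a JUN protein of weaker activation, had 14.8, 38.2, 40.4, 14.0 and 49.2 CPM in SP MAT2Ai and 17.5, 16.7, 13.0, 12.0 and 14.5 CPM in SP placebo. Replicates 2, 3 and 5 of SP MAT2Ai were high, and replicates 1 and 4 lay inside the placebo range. Its log2 fold change was 1.09 ± 0.40 (edgeR adjusted p = 0.833). Jund (chr8:70698949-70700616), the member that most resting tissues express, averaged 176 ± 17.4 CPM in SP MAT2Ai and 153 ± 12.2 CPM in SP placebo (SD, n = 5 each), with a log2 fold change of 0.20 ± 0.13 (edgeR adjusted p = 0.959).

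Maff (chr15:79346621-79359076), the small MAF protein, stood at 6.62, 14.9, 16.2, 7.73 and 6.98 CPM in SP MAT2Ai, against 6.60, 3.90, 4.03, 5.55 and 5.65 CPM in SP placebo. The groups touched without overlapping, since the lowest treated library and the highest placebo library were almost equal. Its log2 fold change was 1.02 ± 0.39 (edgeR adjusted p = 0.833). Unlike Fos, Jun and Junb, Maff was low in SP MAT2Ai replicate 5, which held the most Fos of all libraries. Fosl2 (chr5:32135801-32157842), which encodes FRA2, averaged 13.2 ± 3.60 CPM in SP MAT2Ai and 11.6 ± 2.55 CPM in SP placebo. Atf3 (chr1:191170296-191218039) averaged 2.82 ± 0.88 CPM in SP MAT2Ai and 1.99 ± 0.46 CPM in SP placebo. Their log2 fold changes were 0.19 ± 0.28 for Fosl2 and 0.50 ± 0.41 for Atf3 (edgeR adjusted p = 0.988 and 0.972).

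Leaving out the libraries labelled SP placebo 1 and 2 kept all 8 members higher in SP MAT2Ai, with log2 fold changes of 2.77 for Fosb, 1.07 for Jun, 1.26 for Junb, 1.05 for Maff, 0.32 for Fosl2, 0.27 for Jund and 0.50 for Atf3. In that fit 0 members passed, as did 0 of all 16551 genes tested, and 5 of the 8 were again higher at an unadjusted p under 0.05. Beside these values, the summed level of tubular injury markers was 301 to 378 CPM in SP MAT2Ai and 254 to 296 CPM in SP placebo, with 1 of 10 markers at an unadjusted p under 0.05. That marker was Cdkn1a, which encodes the cell cycle brake p21, at 15.5 ± 5.81 CPM in SP MAT2Ai and 4.47 ± 1.36 CPM in SP placebo (log2 fold change 1.79 ± 0.63, edgeR adjusted p = 0.804). Lymphocyte markers summed to 2.95 to 6.23 CPM in SP MAT2Ai and to 6.86 to 21.3 CPM in SP placebo. At an unadjusted p under 0.05, 3 of 5 were lower, against 2.84% of all genes. Endothelial markers summed to 72.8 to 107 CPM in SP MAT2Ai and to 92.8 to 157 CPM in SP placebo (3 of 5 lower). Erythroid markers summed to 227 to 656 CPM in SP MAT2Ai and to 313 to 1013 CPM in SP placebo (3 of 5 lower). Macrophage markers summed to 25.6 to 53.3 CPM in SP MAT2Ai and to 42.3 to 78.3 CPM in SP placebo (0 of 6). No marker of these lists was at 0 throughout a group. The part of such cells in the AP-1 values was not tested. In bulk RNA, fewer cells of a type and less RNA per cell cannot be told apart.

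**Figure D3:**
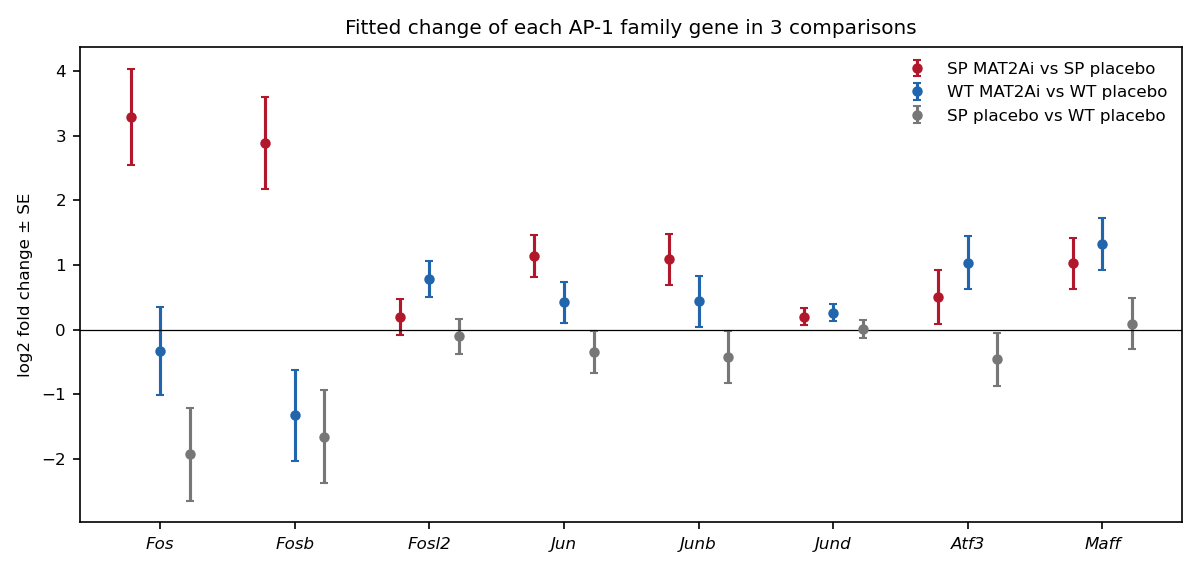
Fitted log2 fold change of each AP-1 family gene (vertical axis; points, with bars for 1 SE) in SP MAT2Ai against SP placebo, WT MAT2Ai against WT placebo and SP placebo against WT placebo, from the model of all 20 libraries. Fos and Fosb stand at 3.30 and 2.89 in the SP comparison and below 0 in the other 2.

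In WT kidneys, MAT2Ai was set against placebo in the same way. Fosl2, Atf3 and Maff were higher in WT MAT2Ai than in WT placebo at an unadjusted p under 0.05, which makes 3 of 8 against 10.4% of all genes, while Fos and Fosb were lower on average. By the edgeR quasi-likelihood test 0 of the 8 passed the adjusted threshold, which 0% of genes passed, and in 0 of the 8 did the groups not overlap, against 1.52% of all genes higher and 0.662% lower. DESeq2, limma-voom and the likelihood ratio test called 0 members as well, against 201 of 15786, 2 of 16152 and 178 of 16152 genes. The median log2 fold change of the members was 0.43, against 0.012 over all genes.

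Maff stood at 7.47, 30.5, 5.31, 11.3 and 6.16 CPM in WT MAT2Ai, against 4.47, 5.21, 5.80, 3.03 and 5.69 CPM in WT placebo. All but replicate 3 of WT MAT2Ai were above the placebo libraries, with a log2 fold change of 1.33 ± 0.40 (edgeR adjusted p = 0.170). Atf3 had 3.60, 15.2, 2.07, 4.51 and 2.68 CPM in WT MAT2Ai and 1.63, 3.03, 3.18, 2.31 and 3.52 CPM in WT placebo, with a log2 fold change of 1.04 ± 0.41 (edgeR adjusted p = 0.243). Fosl2 had 15.4, 41.4, 11.8, 24.3 and 14.2 CPM in WT MAT2Ai and 11.0, 10.8, 16.8, 10.6 and 13.3 CPM in WT placebo, with a log2 fold change of 0.78 ± 0.28 (edgeR adjusted p = 0.218). For these 3 genes replicate 2 was the highest of the group and replicate 4 the next.

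These values depended on replicate 2. Without it the log2 fold change was 0.63 for Maff, 0.22 for Atf3, 0.39 for Fosl2, 0.05 for Jund, -0.03 for Jun and -0.16 for Junb. With all libraries Jun stood at 35.5, 109, 33.4, 46.0 and 41.6 CPM in WT MAT2Ai and at 22.1, 54.3, 31.7, 46.4 and 44.0 CPM in WT placebo. Junb had 14.9, 62.6, 11.5, 28.4 and 16.5 CPM in WT MAT2Ai and 13.0, 25.0, 18.5, 23.5 and 18.9 CPM in WT placebo. In both genes the other 4 libraries of WT MAT2Ai lay within or close to the placebo range. Jund was at 162, 279, 144, 183 and 146 CPM in WT MAT2Ai and at 144 to 160 CPM in WT placebo.

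Fos, by contrast, was not high in WT MAT2Ai outside replicate 2. It stood at 2.57, 8.68, 0.648, 2.59 and 1.08 CPM in WT MAT2Ai, against 0.455, 4.66, 1.97, 8.63 and 3.88 CPM in WT placebo, and the log2 fold change was -0.33 ± 0.68 (edgeR adjusted p = 0.841). Fosb had 0.113, 0.202, 0.0432, 0.0355 and 0.139 CPM in WT MAT2Ai and 0.0758, 0.446, 0.145, 0.382 and 0.297 CPM in WT placebo, with a log2 fold change of -1.33 ± 0.71 (edgeR adjusted p = 0.360). Both genes spread widely within WT placebo itself, where replicate 1 was the lowest library. Beside these values, tubular injury markers summed to 290 to 3726 CPM in WT MAT2Ai and to 279 to 306 CPM in WT placebo, with 8 of 10 higher at an unadjusted p under 0.05. The 3726 CPM were in replicate 2, and the other WT MAT2Ai libraries were at 290 to 406 CPM. Markers of inner medulla and urothelium summed to 0.113 to 52.3 CPM in WT MAT2Ai and to 0.375 to 1.71 CPM in WT placebo (4 of 4 higher). The high libraries were replicates 2, 3 and 4, at 15.9, 52.3 and 5.26 CPM, while replicates 1 and 5 were at 0.113 and 0.939 CPM. Proximal tubule markers summed to 5964 CPM in replicate 2 and to 8247 to 9856 CPM in the rest of WT MAT2Ai. These markers summed to 9420 to 10678 CPM in WT placebo, and 2 of 6 were lower in WT MAT2Ai at an unadjusted p under 0.05. The share of all genes lower in this comparison is not given here. With mitochondrial genes left out, 2531 of 16141 genes had such a p in either direction. The part of the injury and cell type markers in the AP-1 values was not tested.

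Between the genotypes under placebo, Fos and Fosb were the members that stood out, both on the low side in SP. Fos averaged 1.02 ± 0.36 CPM in SP placebo and 3.92 ± 3.10 CPM in WT placebo (SD, n = 5 each), a log2 fold change of -1.93 ± 0.72 (edgeR adjusted p = 1.0). Fosb averaged 0.0848 ± 0.0319 CPM in SP placebo and 0.269 ± 0.156 CPM in WT placebo, with a log2 fold change of -1.66 ± 0.72 (edgeR adjusted p = 1.0). WT placebo replicate 1 lay below the SP placebo libraries for Fos and among them for Fosb, and the other 4 WT placebo libraries were above every SP placebo library for both genes. By the edgeR quasi-likelihood test 0 of 8 members passed the adjusted threshold, as did 0% of all genes, and 2 of 8 were lower at an unadjusted p under 0.05, against 2.06% of all genes. DESeq2, limma-voom and the likelihood ratio test called 0, against 7 of 16100, 4 of 16152 and 7 of 16152 genes. The other 6 members had log2 fold changes between -0.46 for Atf3 and 0.09 for Maff. Without the libraries labelled SP placebo 1 and 2 the log2 fold changes were -2.15 for Fos and -1.54 for Fosb, and Fos was the 1 member of 8 lower at an unadjusted p under 0.05. Low values in SP placebo were not particular to these members. Of 16 immediate early genes outside AP-1 that were measured, 4 were lower at an unadjusted p under 0.05 with all libraries. The median log2 fold change of the 16 was -0.38, and 1 was positive. Without SP placebo 1 and 2, 3 of the 16 were lower. Beside these values, 2 of 6 macrophage markers were lower at an unadjusted p under 0.05, and their sum was 42.3 to 78.3 CPM in SP placebo and 52.9 to 65.3 CPM in WT placebo. Of the podocyte markers 1 of 4 was lower (sum 97.7 to 160 CPM in SP placebo, 145 to 194 CPM in WT placebo), and of the smooth muscle and pericyte markers 1 of 5 (sum 258 to 450 CPM in SP placebo, 228 to 373 CPM in WT placebo). Without SP placebo 1 and 2, 1 of 6 macrophage, 1 of 4 podocyte and 1 of 5 smooth muscle and pericyte markers were lower. Their part in the AP-1 values was not tested.

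The genotypes were then compared under the inhibitor, where 4 of the 8 members had positive log2 fold changes. Fosb and Fos averaged higher in SP MAT2Ai than in WT MAT2Ai, with log2 fold changes of 2.56 ± 0.70 (edgeR adjusted p = 0.0551) and 1.70 ± 0.69 (adjusted p = 0.160). Atf3 and Fosl2 averaged lower, at -0.99 ± 0.41 (adjusted p = 0.166) and -0.69 ± 0.28 (adjusted p = 0.152). The edgeR quasi-likelihood test called 0 of the 8, against 1.84% of all genes, and 2 of 8 were higher and 2 of 8 lower at an unadjusted p under 0.05, against 9.32% and 12.5% of all genes. DESeq2 and the likelihood ratio test each called Fosb (adjusted p = 0.00872 and 0.0126), and so did the quasi-likelihood test without SP MAT2Ai replicate 4 (adjusted p = 0.0362). In these fits DESeq2 called 7.62% of all genes, the likelihood ratio test 5.85%, and the fit without that library 2.73%. Without WT MAT2Ai replicate 2 the values were 2.92 for Fosb, 2.55 for Fos, -0.19 for Atf3 and -0.31 for Fosl2, and that of Maff was 0.47, against -0.21 with that library. Without SP MAT2Ai replicate 5 the value of Fosb was 1.32.

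SP MAT2Ai was also set against WT placebo, which shares neither genotype nor treatment with it. All 8 members had positive log2 fold changes, against 51.5% of all genes, the largest being 1.37 ± 0.68 for Fos, 1.23 ± 0.64 for Fosb, 1.11 ± 0.40 for Maff and 0.79 ± 0.33 for Jun. That of Fosb was -0.01 without SP MAT2Ai replicate 5. The edgeR quasi-likelihood test called 0 of the 8, against 0.118% of all genes, while at an unadjusted p under 0.05 Maff and Jun were higher (2 of 8, against 5.93% of all genes). Maff was the 1 member of 8 whose SP MAT2Ai libraries, at 6.62 to 16.2 CPM, all lay above those of WT placebo, at 3.03 to 5.80 CPM, against 2.11% of all genes. limma-voom called Maff (adjusted p = 0.0402) and Jun (adjusted p = 0.0452), against 4.4% of all genes. DESeq2 and the likelihood ratio test called 0, against 335 of 16100 and 221 of 16152 genes. The share of all genes lower at an unadjusted p under 0.05 in this comparison is not given here. With mitochondrial genes left out, 2034 of 16141 genes had such a p in either direction. Beside the AP-1 values, markers of several cell types were lower in SP MAT2Ai at an unadjusted p under 0.05. These were 5 of 5 endothelial markers (sum 72.8 to 107 CPM in SP MAT2Ai, 106 to 215 CPM in WT placebo) and 5 of 5 lymphocyte markers (sum 2.95 to 6.23 CPM in SP MAT2Ai, 6.53 to 14.5 CPM in WT placebo). Macrophage markers were lower in 4 of 6 cases (sum 25.6 to 53.3 CPM in SP MAT2Ai, 52.9 to 65.3 CPM in WT placebo), podocyte markers in 3 of 4 and smooth muscle and pericyte markers in 3 of 5. Their part in the AP-1 values was not tested.

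Whether the inhibitor acted differently in the 2 genotypes was tested as the interaction in the same model. The difference between the log2 fold change in SP and that in WT was 4.22 ± 1.0 for Fosb and 3.63 ± 1.0 for Fos, both with an edgeR adjusted p of 0.842. By that test 0 of 8 members passed, as did 0% of all genes, and the same 2 members had an unadjusted p under 0.05, against 1.91% of all genes in that direction. DESeq2, limma-voom and the likelihood ratio test called 0 members, against 1 of 16100, 0 of 16152 and 1 of 16152 genes. The interaction was 0.72 ± 0.46 for Jun and 0.65 ± 0.56 for Junb, and -0.59 ± 0.39 for Fosl2, -0.53 ± 0.58 for Atf3, -0.30 ± 0.55 for Maff and -0.07 ± 0.19 for Jund. With SP placebo 1 and 2 left out the interaction was 4.10 for Fosb and 3.85 for Fos (edgeR adjusted p = 0.979 for both). These comparisons share groups with one another, so their values are not independent.

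**Figure D4:**
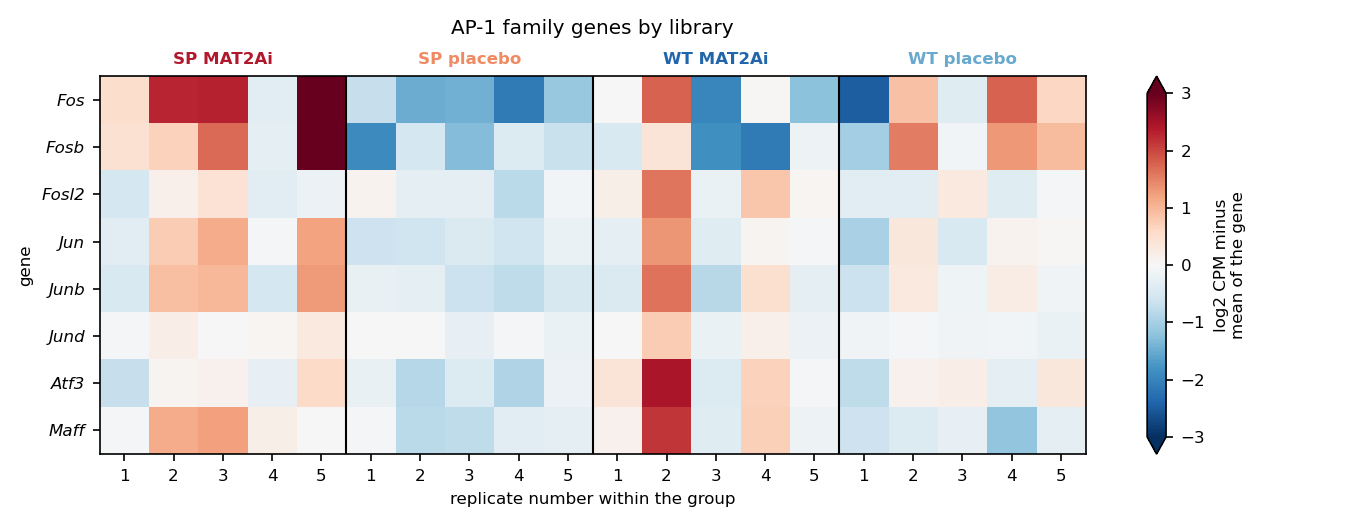
Log2 CPM of each AP-1 family gene (rows) minus its mean over the 20 libraries, by library (columns, replicate numbers within the 4 groups); red is above the mean and blue below, and the scale ends at 3. SP MAT2Ai replicates 2, 3 and 5 and WT MAT2Ai replicate 2 are red for most genes, and the SP placebo libraries are blue for Fos and Fosb.

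Library by library, the members tended to be high together. Ranked over the 20 libraries, WT MAT2Ai replicate 2 was highest for 6 of 8 members and SP MAT2Ai replicate 5 for the other 2, Fos and Fosb. SP MAT2Ai replicates 3 and 5 were each among the top 3 libraries for 6 members. No SP placebo library was among the top 3 for any member. Of the 28 pairs of members, 23 had a Pearson correlation of log2 CPM with a permutation p, adjusted over the pairs, under 0.05, and 20 by Spearman (100000 resamples). Libraries were permuted across groups, so group differences enter these p values, and pairs of other genes were not counted for comparison. The median r was 0.71, 0.70 after the group means were taken away, and 0.53 without the 2 libraries farthest from the median of the first gene. Members of 1 library share its RNA and depth, so these correlations describe the libraries.

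Jun and Junb had the highest Pearson correlation of the 28 pairs, with r = 0.92 and rho = 0.76 over 20 libraries (permutation p = 1e-05, the smallest that 100000 resamples can give, and 0.00016, adjusted 5.6e-05 and 0.00126). The r was 0.85 without the 2 farthest libraries. Fos and Jun had r = 0.88 and rho = 0.88 (permutation p = 1e-05 for both, adjusted 5.6e-05 and 0.00014), and r = 0.81 without the 2 farthest. Fosl2 and Atf3 had r = 0.88 and rho = 0.74 (permutation p = 1e-05 and 0.00023, adjusted 5.6e-05 and 0.00129), and r = 0.66 without the 2 farthest. Fosb and Fosl2 were at r = -0.05 and rho = -0.07 (permutation p = 0.816 and 0.769, adjusted 0.816 and 0.769). Fosb and Maff were at r = 0.14 and rho = 0.21 (permutation p = 0.543 and 0.389, adjusted 0.564 and 0.403). Without WT MAT2Ai replicate 2 the r was 0.89 for Fos and Jun, 0.90 for Jun and Junb, 0.74 for Fosl2 and Atf3 and 0.51 for Atf3 and Maff.

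Genes whose log2 CPM averaged 0 or more were searched for likeness to a member, 11833 in all, and the gene most like Fos over the 20 libraries was Egr1, a zinc finger factor that is also an immediate early gene (r = 0.97, and 0.95 after group means were taken away). Nr4a1, an orphan nuclear receptor, came next (r = 0.80), then Ccn1, a secreted matrix protein (0.77), Cep83, a centriole protein (0.75), and Zxdc, a zinc finger protein (0.73). Egr1 was also the gene most like Jun (r = 0.92), before Btg2, which slows proliferation (0.87), Trim24 (0.83), Pnrc1 (0.80) and the phosphatase gene Ppm1d (0.79). For Atf3 the closest were Smad1, which carries BMP signals (0.90), Rasd1 (0.90), Wtap (0.89), Zfp36, which promotes mRNA decay (0.89), and Klf6 (0.88). For Maff they were Stat3, which carries cytokine signals (0.92), Bbc3 (0.90), Ddx46 (0.90), Bmyc (0.89) and Ndrg1 (0.89). Without WT MAT2Ai replicate 2 Egr1 kept first place for Fos and Jun, while for Atf3 Smad1 took place 6 and Klf6 place 19. By deviations from group means Cep83 and Zxdc took places 38 and 32 for Fos, Trim24 place 32 for Jun, and Bbc3 and Ddx46 places 36 and 49 for Maff.

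**Figure D5:**
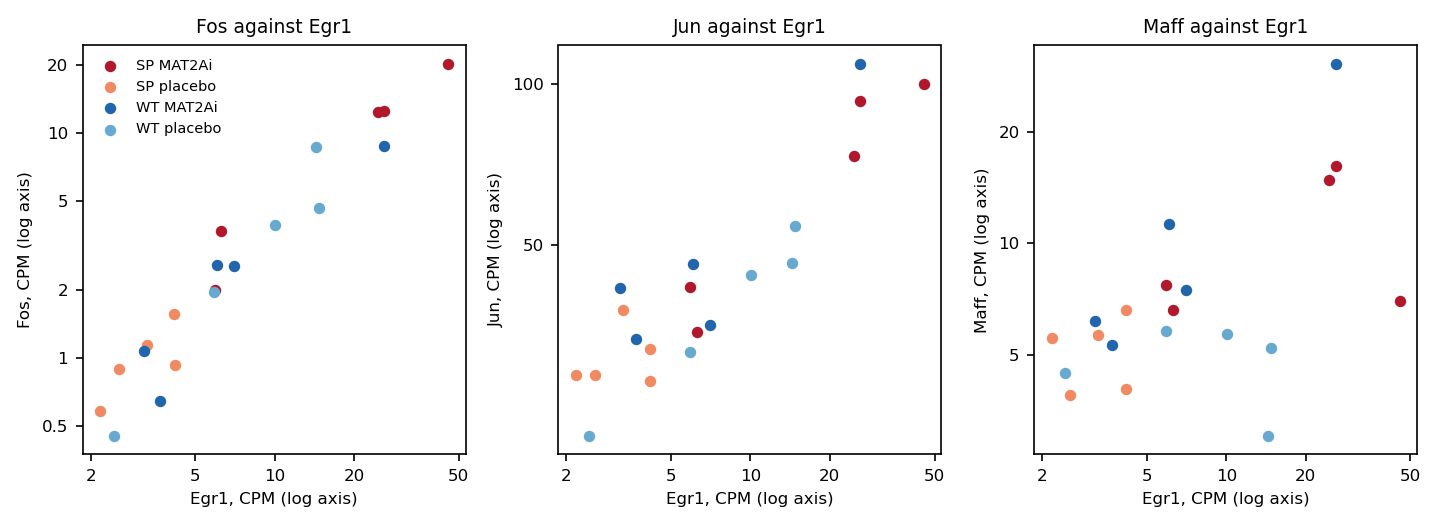
CPM of Fos, Jun and Maff (vertical axes) against CPM of Egr1 (horizontal axes) in the 20 libraries, all on log axes, coloured by group. Fos lies nearest to a line with Egr1 (r = 0.97), and Jun has r = 0.92 on the log2 scale.

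The genes around AP-1 were described in the same way. Of 16 immediate early genes outside AP-1 that were measured, 7 were higher in SP MAT2Ai at an unadjusted p under 0.05 (against 3.08% of all genes), 3 of them without overlap, and 0 passed the adjusted threshold by edgeR. Egr1 stood at 6.27, 24.6, 26.1, 5.92 and 45.6 CPM in SP MAT2Ai, against 4.16, 2.56, 4.17, 2.17 and 3.27 CPM in SP placebo (log2 fold change 2.73 ± 0.63, edgeR adjusted p = 0.312). As with Fos, replicates 2, 3 and 5 were the high ones. Ier5 and Ier2, 2 quickly induced nuclear proteins, had log2 fold changes of 0.76 ± 0.19 and 1.01 ± 0.30 (edgeR adjusted p = 0.447 and 0.706). Without the libraries labelled SP placebo 1 and 2, an alternative chosen for these lists after seeing the data, 5 of the 16 were higher and Egr1 had a log2 fold change of 2.77. Without the same libraries 1 of 10 injury markers was higher, and 1 of 5 lymphocyte, 0 of 5 endothelial, 2 of 5 erythroid and 1 of 6 macrophage markers were lower. In WT kidneys 4 of the 16 immediate early genes were higher at an unadjusted p under 0.05 (against 10.4% of all genes), led by Btg2 (1.37 ± 0.46, edgeR adjusted p = 0.196), while Egr1 had -0.05 ± 0.59. The summed level of the list was 557 CPM in WT MAT2Ai replicate 2. It was 211 to 302 CPM in the rest of that group and 179 to 273 CPM in WT placebo. Klf4, a zinc finger factor of epithelia, was the immediate early gene listed that fell in SP MAT2Ai against WT MAT2Ai (-0.85 ± 0.18, edgeR adjusted p = 0.0343).

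The kinases that signal to AP-1 had log2 fold changes near 0. Of 24 MAP kinase pathway genes 0 had an unadjusted p under 0.05 in SP MAT2Ai against SP placebo, with a median log2 fold change of 0.05, and 2 did without the libraries labelled SP placebo 1 and 2. In WT 1 did, Rps6ka4, which encodes the kinase MSK2 (0.16 ± 0.07). Of 10 factors that bind the Fos and Jun promoters, 0 did in SP, and in WT Stat3 was higher (0.74 ± 0.28, edgeR adjusted p = 0.230) and Creb1 lower (-0.21 ± 0.09, edgeR adjusted p = 0.277). The summed level of these 10 was 402 CPM in WT MAT2Ai replicate 2. It was 235 to 277 CPM in the rest of that group and 228 to 262 CPM in WT placebo. Of 15 feedback inhibitors and mRNA decay genes, Dusp6 and Dusp1, phosphatases that switch off MAP kinases, were higher in SP MAT2Ai at an unadjusted p under 0.05 (0.31 ± 0.12 and 0.78 ± 0.34, edgeR adjusted p = 0.833 for both), and without those 2 libraries 1 of the 15 was. In WT 3 of the 15 were, led by Dusp8 (1.08 ± 0.39, edgeR adjusted p = 0.221). Of all genes, 3.08% were higher at an unadjusted p under 0.05 in SP and 10.4% in WT. The summed level of the 15 was 672 CPM in WT MAT2Ai replicate 2 and 550 CPM in replicate 4. It was 395 to 427 CPM in the rest of that group and 354 to 473 CPM in WT placebo. Fosl1, which encodes FRA1, failed the filter on low counts and was at most 1.40 CPM, in WT MAT2Ai replicate 2.

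Of 18 genes known as AP-1 targets that were measured, 0 were higher and 2 lower in SP MAT2Ai than in SP placebo at an unadjusted p under 0.05 (against 3.08% of all genes higher and 2.84% lower), and 0 in either direction when SP placebo 1 and 2 were left out. The 2 were Tgfb1, the growth factor TGF-β1 (-0.39 ± 0.14), and Plaur, the urokinase receptor (-0.61 ± 0.25; edgeR adjusted p = 0.833 for both). In WT MAT2Ai against WT placebo 8 of 18 were higher (against 10.4% of all genes), with Spp1, which encodes osteopontin, at 2.21 ± 0.60, Timp1, an inhibitor of matrix proteases, at 3.13 ± 0.85, and the cytokine Lif at 2.55 ± 0.83 (edgeR adjusted p = 0.155, 0.155 and 0.184). The summed level of the target list was 5096.5 CPM in WT MAT2Ai replicate 2. The other libraries of that group were at 1033 to 1346 CPM, and those of WT placebo at 1033 to 1240 CPM. Between SP MAT2Ai and WT MAT2Ai, 12 of 18 were lower at an unadjusted p under 0.05, against 12.5% of all genes, and 4 of them fell past the adjusted threshold by edgeR, which 1.84% of all genes passed. Among them were Plaur (-1.44 ± 0.25, adjusted p = 0.0226), Tgfb1 (-0.69 ± 0.14, adjusted p = 0.0292) and Timp1 (-3.57 ± 0.87, adjusted p = 0.0432). Plaur averaged 1.18 ± 0.26 CPM in SP MAT2Ai and 3.20 ± 1.30 CPM in WT MAT2Ai (SD, n = 5 each). The median log2 fold change of the 18 in that comparison was -0.93. The injury markers Lcn2, Krt20 and Sox9 fell in the same comparison (-5.90 ± 1.34, -4.95 ± 1.21 and -4.51 ± 1.11, edgeR adjusted p = 0.0399, 0.0432 and 0.0440), as did the macrophage genes C1qb, C1qc and Cd68 (-0.93 ± 0.19, -0.90 ± 0.19 and -1.20 ± 0.30, edgeR adjusted p = 0.0311, 0.0311 and 0.0464). So did Acta2 and Tagln of smooth muscle (-0.80 ± 0.19 and -0.89 ± 0.16, edgeR adjusted p = 0.0422 and 0.0248), the urea transporter gene Slc14a2 (-5.29 ± 1.19, adjusted p = 0.0383) and the fat cell gene Cfd (-6.25 ± 1.54, adjusted p = 0.0438). Slc22a6, the organic anion carrier of the proximal tubule, rose (0.55 ± 0.11, edgeR adjusted p = 0.0266). The globin gene Hba-a2 was the listed gene that fell in SP MAT2Ai against WT placebo (-3.48 ± 0.56, adjusted p = 0.0191). Without SP MAT2Ai replicate 2, 3 or 5, 0 genes passed in that last comparison. Over all lists 17 genes outside the 8 members passed in SP MAT2Ai against WT MAT2Ai, and these calls depended on single libraries. Of the 17, 0 passed without SP MAT2Ai replicate 2, 3 or 5, where 1, 0 and 0 of all genes passed, against 298 with all libraries. Without SP MAT2Ai replicate 1 it was 2 of the 17, without WT MAT2Ai replicate 2 it was 12, and with only those 2 groups in the fit 0.

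Of 9 heat shock genes, read as a sign of cell stress, 0 had an unadjusted p under 0.05 in SP MAT2Ai against SP placebo, with a median log2 fold change of -0.10. In WT Hspb1, a small chaperone, was higher (1.58 ± 0.48, edgeR adjusted p = 0.170) and Hspe1, a mitochondrial one, lower (-0.31 ± 0.10, edgeR adjusted p = 0.184), and Hspb1 fell in SP MAT2Ai against WT MAT2Ai (-2.21 ± 0.49, edgeR adjusted p = 0.0367). The gene Cyp11b1 of the adrenal cortex was at 0 in every library, and Ly6g of neutrophils reached at most 0.124 CPM. The neutrophil list summed to between 1.41 CPM (SP placebo replicate 4) and 17.9 CPM (WT MAT2Ai replicate 2). Of its 4 tested markers, 0 had an unadjusted p under 0.05 in SP MAT2Ai against SP placebo or SP placebo against WT placebo. Without SP placebo 1 and 2, 2 of 4 were higher in the first comparison (median log2 fold change 1.40). In the second, 3 of 4 were lower (median -1.54). Their part in the AP-1 values was not tested. Jun, Junb, Jund and Atf3 each overlap a gene on the other strand, and the strand setting of the counting is not stated, so reads of the overlap could not be set apart. Of these partners Prdx2, which overlaps Junb, was abundant (156 to 198 CPM), and the partners of Jun and Jund were below 1 CPM.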

How the data were processed

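Poly(A) RNA of kidney cortex was sequenced as directional libraries on the NovaSeq 6000, aligned by the authors with STAR 2.5.2 to mm10 and counted per gene with htseq and the Ensembl 78 annotation. The deposited values are raw counts per gene, 1 file a library. The strand setting of the counting is not given in the sources used here. The 5 lines per file that name no gene did not enter library sizes: reads in no feature came to 3.87% to 5.49%, and ambiguous reads to 0.702% to 0.794%, of uniquely aligned reads. Symbols and exon lengths came from GENCODE M21, which named 42462 of the 43430 genes. Promoter sequences came from RefSeq, in which all 8 members were matched.

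Counts were tested with edgeR 4.0.16 in R 4.3.3: filterByExpr (16152 genes kept), TMM factors, 1 mean for each of the 4 groups over all 20 libraries, the quasi-likelihood test, and Benjamini-Hochberg adjustment over all genes with a threshold of 0.05. SE is the log2 fold change divided by the root of F. CPM used effective library sizes, and log2 CPM a prior count of 2. Alternatives were DESeq2 1.42.0, limma-voom with sample weights (limma 3.58.1), the edgeR likelihood ratio test, a robust fit, other scaling, filters and samples. Their use for the other gene lists was chosen after seeing the data. Replicates that GEO labels as separate samples were taken as such, and p values measure the spread between these libraries. Counts of PCR-amplified reads are not independent molecules, so a depth of 53296824 to 79339949 limits counting error only.

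The members and the gene lists were chosen with earlier results of these data known. All 8 members are described. From each other list the text names every gene past the threshold in any comparison, and up to 3 with the smallest p in each MAT2Ai against placebo comparison, except for some that are not reported here. For Fos, Jun, Atf3 and Maff it names the 5 genes with the highest correlation.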

Additional observations from a re-analysis of the deposited data

Results flagged for a closer look

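Jun in WT MAT2Ai replicate 2 stood apart from the other libraries of its group, at 108.86 CPM against 33.4 to 46.0 CPM. On the log2 scale its gap to the next library was 0.729 of the range of the group, above the critical value of 0.71 for 5 samples. This was the 1 flagged of 32 groups tested on that scale, and chance alone gives about 1 in 20.

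Fosb differed in direction between the 2 genotypes. Each SP MAT2Ai library was above the SP placebo mean and each WT MAT2Ai library was below the WT placebo mean on the log2 scale, and the difference between the SP and WT changes was 2.9821. By this reading the difference was not tested. In the edgeR interaction it was 4.22 ± 1.0 with an adjusted p of 0.842.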

How the results depend on the processing

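Of 1477 log2 fold changes of members under 31 alternatives, 1430 kept their direction and side of the threshold, 10 newly passed it and 37 turned, none of them a value past the threshold. The count of members past the threshold was 2 with DESeq2 and 2 with the likelihood ratio test in SP MAT2Ai against SP placebo (Fos and Fosb), and 1 with each in SP MAT2Ai against WT MAT2Ai (Fosb). In that comparison it was 0 to 1 when single libraries were left out. In SP MAT2Ai against WT placebo it was 2 with limma-voom and 1 without WT MAT2Ai replicates 2, 3 and 4 (Maff, adjusted p = 0.0385). In the latter fit 220 of 16770 genes passed. The cause was not tested.

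Without WT MAT2Ai replicates 2, 3 and 4, WT MAT2Ai against WT placebo gave -0.048 for Jun and -0.34 for Junb, SP MAT2Ai against WT MAT2Ai 0.19 for Jund and 0.62 for Maff, and the interaction 0.18 for Jund, 0.31 for Atf3 and 0.53 for Maff. limma-voom gave -0.29 for Junb in WT, -0.020 for Jund in SP placebo against WT placebo, 0.17 for Jund and 0.35 for Maff in SP MAT2Ai against WT MAT2Ai, and 0.19 for Jund, 0.36 for Atf3 and 0.27 for Maff in the interaction. Without SP placebo replicates 1 and 2, Jund gave -0.068 in SP placebo against WT placebo and 0.014 in the interaction. The r of Fosb and Fosl2 was 0.10 for deviations from group means.

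With single libraries left out, WT MAT2Ai against WT placebo ranged over -1.20 to 0.16 for Fos, -0.027 to 0.54 for Jun and -0.16 to 0.61 for Junb. SP placebo against WT placebo ranged over -0.21 to 0.020 for Fosl2, -0.022 to 0.041 for Jund and -0.041 to 0.17 for Maff, and SP MAT2Ai against WT MAT2Ai over -0.13 to 0.15 for Jund and -0.42 to 0.47 for Maff. SP MAT2Ai against WT placebo ranged over -0.0078 to 1.5 for Fosb, -0.066 to 0.21 for Fosl2 and -0.13 to 0.18 for Atf3, and the interaction over -0.14 to 0.14 for Jund, -0.73 to 0.28 for Atf3 and -0.51 to 0.39 for Maff.

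The replicate numbers did not pair the libraries: over 30 pairs the mean correlation of deviations was -0.02, 4 were over 0.1, and 6 of 20 libraries correlated best with their own number. With the replicate number as a block 0 members passed and 48 of 48 log2 fold changes kept their direction (Fos 3.15 in SP MAT2Ai against SP placebo, adjusted p = 0.517). Fits of only the groups compared could not give the interaction, nor Fosb in 3 comparisons, where it failed the filter. Counts of 2 to 139 limit what Fosb can show.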
